A study of Mus musculus with 26 samples.

Results

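Transcript levels in 4 mouse osteosarcoma cell lines, numbered 176, 179, 182 and 213, were set against those in 3 cultures of osteoblasts differentiated in vitro, numbered 1 to 3. These samples were taken by their labelled source and title, and make up 4 and 3 of the 26 arrays of a series whose other arrays hold 15 primary and 4 secondary tumours. Secondary tumour 66 is titled a cell line, and its source is given as tumour tissue derived from an osteosarcoma cell line. The other secondary tumours are labelled as secondary transplants. Tumour 66 was kept in their group in the fit. Both sides are cells grown in culture, so no array of this comparison holds tumour tissue. The labels give no genotype, strain, age, passage number or culture medium for the lines or for the osteoblasts, and do not say that the cultures came from separate animals. The spread between the cultures may therefore be technical. The p-values rest on each gene's spread within groups over all 26 arrays. They do not measure the spread of the lines and cultures alone, since the tumours are included. Primary tumours numbered 176, 179 and 182 are in the series too, and the labels do not say how a line and a tumour of one number are related.

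Osteoblasts arise from mesenchymal precursors that can also become cartilage cells or fat cells. They lay down a matrix of type I collagen, mineralise it, and in part become osteocytes, the cells embedded in bone. Osteosarcoma is a malignant tumour whose cells keep some of this bone-forming character. Cells that run short of amino acids, or that fold proteins poorly, raise the transcription factor ATF4, which acts on genes for amino acid transport, for the synthesis of asparagine and serine and for the one-carbon units that nucleotide synthesis needs. Hox and Tbx factors record where along the body and the limb a mesenchymal cell came from, and are often kept in culture.

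Values are log2 intensities with a floor of 3.64, given in the order 176, 179, 182 and 213 for lines and 1, 2 and 3 for cultures. A difference is the mean of the lines minus the mean of the cultures on this log2 scale, with its standard error (SE), so that 1 is a 2-fold change. A gene is said to have risen or fallen where limma's adjusted p was below 0.05 and the difference was at least 1 in size. Levels of different genes are not compared, since each probe set has its own response.

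Array medians were 44.4 to 48.2 intensity units in the lines and 46.4 to 48.2 in the cultures, and the share of probe sets at the floor was 20.2% to 21.6% in the lines, against 22.3% to 23.3% in the cultures. The ratio of the 5′ to the 3′ probe set of the Gapdh control was 1.04 to 1.08 in the lines, against 0.916 to 0.967 in the cultures. The ratio of the spiked bacterial controls bioB to bioC was 1.09 to 1.2 in the lines, against 0.484 to 0.502 in the cultures. Between lines and cultures, this property of the hybridisations and the cell type therefore cannot be told apart. The primary tumours held both kinds of array, with a ratio of 0.389 to 0.415 in some and 1.04 to 1.2 in the others. Primary tumours 176, 179 and 182 were among the latter. The part of this property in the differences below was not tested. The cultures correlated at 0.987 to 0.991 with each other, the lines at 0.889 to 0.967 with each other, and lines with cultures at 0.833 to 0.902. The median SD of a gene was 0.259 over the lines and 0.119 over the cultures. Line 176 was the least like the other lines, at 0.889 to 0.914.

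Line 176 also went against the primary tumour of its number in sex-linked genes. Xist, the RNA of the inactive X chromosome, measured 8.20 in line 176 and 5.62 in primary tumour 176 on its brightest probe set. Of the Y-linked genes, the kept probe set of Eif2s3y and 2 kept probe sets of Uty were at the floor in all 4 lines and all 3 cultures, against 6.58, 6.29 and 6.45 in primary tumour 176. The remaining kept probe set of Uty read 4.99 in line 176 and 5.83 in primary tumour 176, with 4.06 to 4.29 in the cultures, and Kdm5d read 5.38 in line 176 and 6.16 in primary tumour 176 on its brighter probe set, with 4.40 to 5.12 in the cultures. Lines 179, 182 and 213 held Xist at 11.84, 11.07 and 11.51, against 11.85 to 11.92 in the cultures. Whether line 176 and primary tumour 176 come from the same mouse was not tested, and no test below rests on that match.

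Of 12887 genes tested, 203 rose (1.58%) and 856 fell (6.64%) in the lines, together 1059 (8.22%). All 4 lines lay above all 3 cultures for 1699 genes (13.2%) and below them for 3594 genes (27.9%). The median difference over all genes was -0.103. It became 0.06 after quantile normalization and 0.0763 after scaling the arrays to a common 75th percentile, and the share of higher genes among those called was 19.2% as deposited, 30.4% after quantile normalization and 35.7% after the scaling. The balance of rises and falls thus depends on the scaling, and the groups below are read against these shifts. Counts for the lists below are likewise to be read against the shares of all genes given here.

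**Figure D1:**
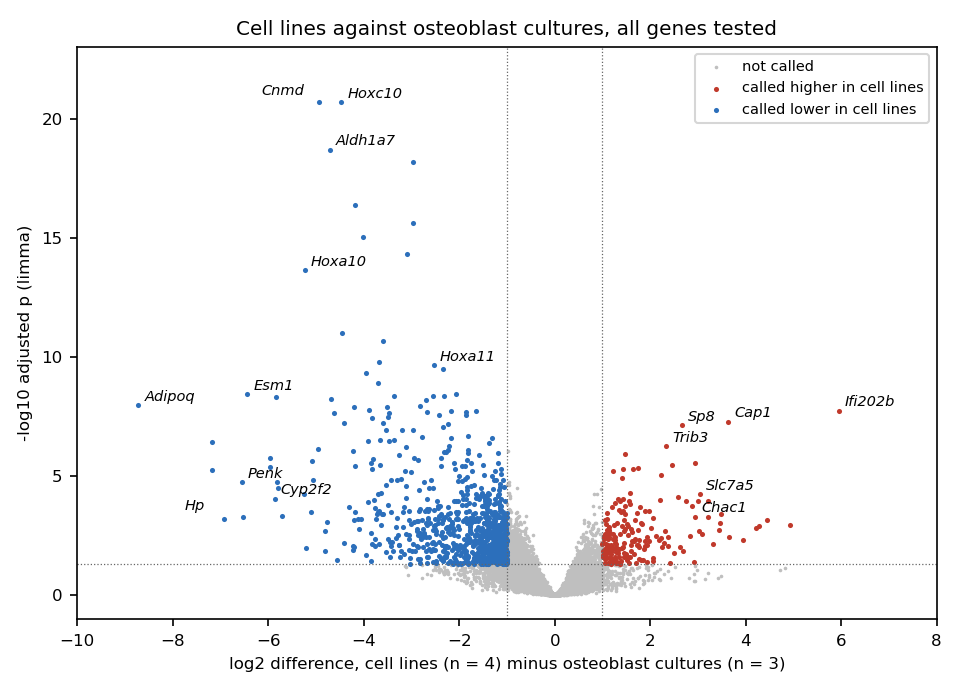
Each point is a gene: the horizontal axis gives the log2 difference between the 4 cell lines and the 3 osteoblast cultures, the vertical axis -log10 of limma's adjusted p. The 203 genes called higher in the lines lie to the right, the 856 called lower to the left, and dotted lines mark the thresholds.

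**Figure D2:**
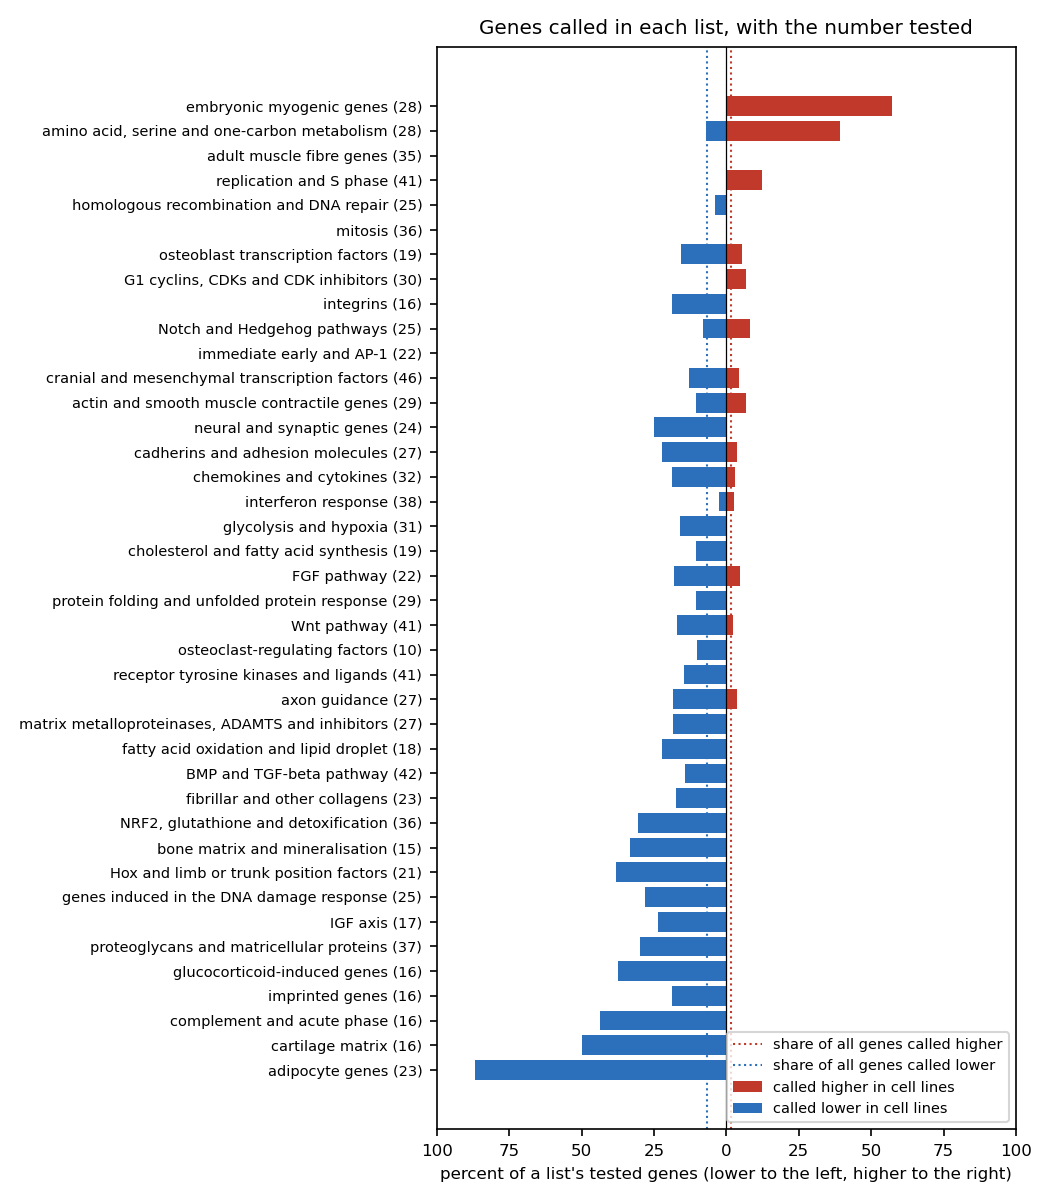
For each gene list with at least 10 tested genes (number in brackets), cell type markers left out, bars give the percent of its genes called higher in the lines (right) and lower in the lines (left), ordered by the list's median difference. Dotted lines mark the shares of all 12887 genes, 1.58% higher and 6.64% lower; the embryonic myogenic and the amino acid lists reach farthest right, the adipocyte and cartilage lists farthest left.

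Genes of amino acid supply and of the response to amino acid shortage rose more often than they fell. Of 28 tested genes of amino acid, serine and one-carbon metabolism, 11 rose and 2 fell, and the list's median difference was 0.95. All 4 lines lay above all 3 cultures for 18 of the 28 genes, against 13.2% of all genes. Among the transporters, Slc7a5, the light chain of the exchanger that imports leucine and other large neutral amino acids, measured 9.79, 10.40, 10.35 and 10.21 in the lines, against 7.16, 7.14 and 7.15 in the cultures (difference 3.04 ± 0.46, adjusted p = 5.73e-05). Its partner, the heavy chain Slc3a2, measured 10.94, 11.12, 10.95 and 10.74 in the lines, against 9.88, 9.90 and 9.76 in the cultures (1.09 ± 0.25, adjusted p = 0.00323). Both chains of this exchanger were therefore higher in every line than in every culture. The glutamine carrier Slc1a5 went the other way, with 7.08, 7.74, 8.08 and 9.13 in the lines, against 10.38, 10.26 and 10.21 in the cultures (-2.27 ± 0.58, adjusted p = 0.00875). The other fall was that of Nnmt, a methyltransferase of nicotinamide (-1.94 ± 0.54, adjusted p = 0.0149), lost without culture 1, culture 2 or line 176 (adjusted p = 0.0573, 0.0519 and 0.0515) and after quantile normalization (0.064).

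In serine synthesis, Phgdh, which takes the first step from a glycolytic intermediate, measured 11.48, 11.21, 11.30 and 11.06 in the lines and 9.44, 9.48 and 9.39 in the cultures (1.83 ± 0.36, adjusted p = 0.00102). The next enzyme, Psat1, lay at 10.34 to 10.62 in the lines, against 9.26 to 9.32 in the cultures without passing the test (1.19 ± 0.61, adjusted p = 0.195). Mitochondrial one-carbon metabolism uses serine, and its enzymes Shmt2 (1.26 ± 0.29, adjusted p = 0.00352) and Mthfd2 (2.23 ± 0.51, adjusted p = 0.00382) rose. Mthfd2 measured 10.48, 10.67, 10.21 and 10.47 in the lines and 8.26, 8.36 and 8.08 in the cultures. The groups did not overlap for any of these enzymes. Got1, the cytosolic aminotransferase that links aspartate and glutamate, measured 9.05, 9.15, 9.09 and 9.17 in the lines and 6.95, 6.94 and 6.92 in the cultures (2.18 ± 0.51, adjusted p = 0.00459). Asns, which makes asparagine, was at 10.80 to 11.37 in the lines, against 9.31 to 9.40 in the cultures, a difference of 1.72 ± 0.64 that did not pass (adjusted p = 0.0686). Asns was called with only the 7 arrays in the fit (adjusted p = 7.18e-04), with array weights (0.00125), after quantile normalization (0.0438) and with scaling to a common 75th percentile (0.0489), and Psat1 in the first 2 of these settings (6.60e-04 and 0.0105).

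Chac1, Trib3 and Ddit3, 3 members of the list that respond to stress, were higher in every line. Chac1, an enzyme that breaks down glutathione, measured 10.18, 9.78, 9.73 and 9.19 in the lines, against 6.68, 6.88 and 6.81 in the cultures (2.93 ± 0.54, adjusted p = 5.01e-04). Trib3, a pseudokinase induced through ATF4, measured 10.38, 10.06, 9.56 and 9.54 in the lines, against 7.50, 7.59 and 7.57 in the cultures (2.33 ± 0.26, adjusted p = 5.57e-07). Ddit3, the transcription factor CHOP, measured 10.06, 10.69, 9.93 and 9.77 in the lines, against 8.26, 8.19 and 7.99 in the cultures (1.96 ± 0.34, adjusted p = 2.88e-04). No line reached down to the highest culture for any of these genes. Atf4 itself lay at 11.24, 11.15, 10.70 and 10.95 in the lines and 10.37, 10.07 and 10.20 in the cultures, a difference of 0.80 ± 0.28 that did not pass (adjusted p = 0.0568) but was called after quantile normalization (1.13, adjusted p = 0.00431). A second probe set of Atf4 gave 0.999 (limma's adjusted p = 0.0017 with each probe set tested on its own), just below the threshold on size. Slc7a5, Slc3a2, Phgdh, Shmt2, Mthfd2, Got1, Chac1, Trib3 and Ddit3 kept their calls in all 16 alternative settings, those that left out a line or a culture included. Of 29 tested genes of protein folding and the unfolded protein response, 3 fell, where 6.64% of all genes did. The list's median was -0.36. Herpud1, a part of the endoplasmic reticulum's degradation machinery, had a difference of 0.94 ± 0.31 (adjusted p = 0.0437), below the threshold on size as deposited and above it after quantile normalization (1.18), scaling to a common 75th percentile (1.12) or without line 182 (1.07).

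**Figure D3:**
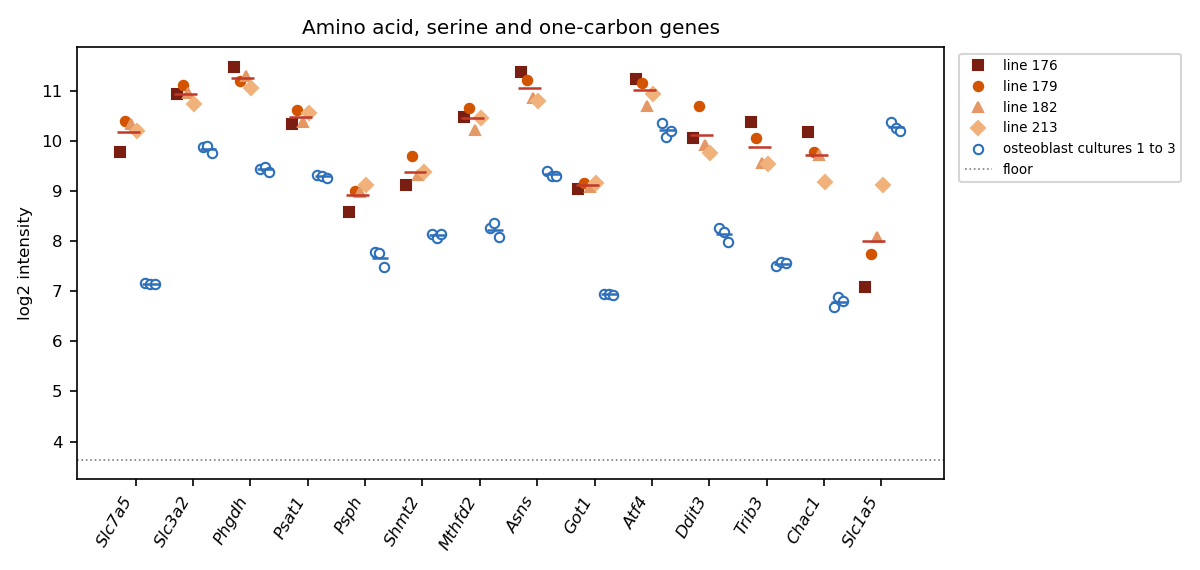
log2 intensity of amino acid, serine and one-carbon genes in each cell line (filled symbols, left of each gene) and each osteoblast culture (open circles, right), with horizontal bars at the group means. For 13 of the 14 genes all lines lie above all cultures; for Slc1a5 all lines lie below.

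ATF4 and its partners bind a composite site for C/EBP and ATF factors, of which TGATGNAA is a common form. This form was searched on both strands in the promoters that RefSeq gives for assembly GRCm38.p6, a window around each gene's start. It stood in 3 of the 9 risen genes of this list that have a promoter in the table, namely Chac1, Trib3 and Got1. Of all 27025 genes with a promoter, 4.51% held it. The 3 promoters are shown because they are the ones that hold the match. Capitals mark it, read on either strand. They lie at chr2:119350992-119351291 (plus strand), chr2:152344011-152344310 (minus strand) and chr19:43524556-43524855 (minus strand), each printed 5′ to 3′ along its gene.
Chac1: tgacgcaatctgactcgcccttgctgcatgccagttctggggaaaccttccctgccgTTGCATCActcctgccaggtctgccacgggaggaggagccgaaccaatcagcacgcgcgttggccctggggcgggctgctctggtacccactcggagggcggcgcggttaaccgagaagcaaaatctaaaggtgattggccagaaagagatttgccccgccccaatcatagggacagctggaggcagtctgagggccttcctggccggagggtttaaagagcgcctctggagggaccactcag
Trib3: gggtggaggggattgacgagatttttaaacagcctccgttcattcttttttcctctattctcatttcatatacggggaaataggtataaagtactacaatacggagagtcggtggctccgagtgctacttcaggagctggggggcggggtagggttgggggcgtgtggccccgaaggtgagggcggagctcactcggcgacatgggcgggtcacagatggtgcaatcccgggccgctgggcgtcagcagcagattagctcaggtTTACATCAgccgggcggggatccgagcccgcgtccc
Got1: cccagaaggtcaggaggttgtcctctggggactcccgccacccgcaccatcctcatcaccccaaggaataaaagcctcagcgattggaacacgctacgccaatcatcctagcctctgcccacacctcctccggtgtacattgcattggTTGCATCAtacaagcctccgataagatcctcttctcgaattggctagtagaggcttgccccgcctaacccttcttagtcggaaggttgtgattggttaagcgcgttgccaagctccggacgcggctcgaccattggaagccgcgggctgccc
A match is a description of these letters and says nothing of binding in these cells.

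Embryonic muscle genes were high in lines 179, 182 and 213 and at the level of the osteoblasts in line 176. Of 28 tested genes of the embryonic myogenic programme, 16 rose (median difference 2.33). The list's mean was 4.86, 8.82, 7.80 and 6.90 in lines 176, 179, 182 and 213, against 4.81, 4.82 and 4.92 in the cultures. Myod1, the transcription factor that commits cells to muscle, measured 3.64, 9.40, 9.58 and 9.69 in the lines, against 3.64, 3.64 and 4.13 in the cultures (4.28 ± 0.86, adjusted p = 0.0012). Its partner in differentiation Myog measured 3.90, 10.82, 10.31 and 9.13 in the lines, against 4.20, 4.04 and 4.73 in the cultures (4.22 ± 0.87, adjusted p = 0.00147). Line 176 was thus at or below the culture level for both factors. The other lines stood more than 4 log2 units above every culture. Chrna1, the alpha subunit of the muscle acetylcholine receptor, measured 5.25, 11.59, 11 and 10.83 in the lines, against 5.14, 5.49 and 5.03 in the cultures (4.45 ± 0.85, adjusted p = 6.99e-04). The cardiac actin Actc1, the embryonic form of fibre actin, measured 4.44, 12.15, 11.57 and 9.21 in the lines, against 4.75, 4.41 and 4.08 in the cultures (4.93 ± 0.99, adjusted p = 0.00111).

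Both parts of the cell fusion machinery of myoblasts were measured. Mymk lay at 4.87, 9.64, 8.68 and 7.37 in the lines and 3.64, 4.14 and 4.71 in the cultures (3.48 ± 0.63, adjusted p = 3.90e-04). Mymx lay at 3.64, 9.31, 7.64 and 6.05 in the lines and at the floor in every culture, a fitted difference of 3.02 that is no bound, since line 176 is at the floor too (adjusted p = 0.00198). Line 176 was above the cultures for Mymk and at the floor for Mymx. Mymx passed the intensity filter described below only through the other lines, so the direction of its difference was fixed by that selection. With only the 7 arrays of this comparison in the fit, 5 of the 28 genes rose (Mymk, Popdc3, Rbm24, Rapsn and Pax3), so the calls of Myod1, Myog, Chrna1, Actc1 and Mymx rest on the spread estimated with the tumours. Tnnc1, the calcium sensor of slow and cardiac muscle, measured 5.26, 11.45, 9.72 and 7.94 in the lines and 4.99, 4.98 and 4.87 in the cultures (3.64 ± 0.83, adjusted p = 0.00352), a call also lost in that fit. Without line 176, 19 rose. Over the mean of its probe sets Pax3 lost its call (limma's adjusted p = 0.0639), and its other kept probe sets were not called. Popdc3, a cyclic AMP binding membrane protein of muscle, measured 4.98, 8.78, 7.09 and 8.50 in the lines and 3.64, 4.04 and 3.96 in the cultures, and Rbm24, a splicing regulator of muscle, 5.25, 9.21, 7.97 and 7.97 in the lines and 4.52, 4.26 and 4.36 in the cultures. For these genes and for Rapsn (2.38 ± 0.61, adjusted p = 0.0089), which clusters acetylcholine receptors, line 176 was above all 3 cultures too. Among 35 genes of adult muscle fibres, limma called 0 as higher, with 7 higher at an unadjusted p below 0.05; 3 were called without line 176, 2 with only the 7 arrays in the fit and 14 with array weights. For these genes the list's mean was 5.18, 7.79, 6.98 and 6.29 in the lines, against 5.25 to 5.32 in the cultures.

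The core of the site that MYOD1 and MYOG bind, CAGCTG, was searched on both strands. It stood in 3 of the 10 risen myogenic genes with a promoter in the table and in 18.3% of all genes with a promoter. The promoter of Chrna1 at chr2:73580289-73580588 (minus strand, GRCm38.p6) is shown because it holds 2 matches, in capitals.
Chrna1: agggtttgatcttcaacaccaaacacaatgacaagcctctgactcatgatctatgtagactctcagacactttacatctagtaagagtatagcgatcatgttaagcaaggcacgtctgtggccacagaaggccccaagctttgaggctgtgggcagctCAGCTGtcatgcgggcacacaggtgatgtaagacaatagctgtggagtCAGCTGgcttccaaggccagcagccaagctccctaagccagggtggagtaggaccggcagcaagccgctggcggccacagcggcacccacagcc
The matches describe this window only.

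A few genes of DNA replication rose in the lines. Of 41 tested genes of replication and S phase, 5 rose, with a median of 0.61, where 1.58% of all genes rose. All lines lay above all cultures for 28 of the 41, against 13.2% of all genes. Cdt1, which loads the replicative helicase at origins, measured 9.52, 9.79, 9.09 and 10.20 in the lines and 7.89, 7.74 and 7.65 in the cultures (1.89 ± 0.33, adjusted p = 3.01e-04). The helicase subunits Mcm2 (1.42 ± 0.29, adjusted p = 0.0012) and Mcm3 (1.2 ± 0.31, adjusted p = 0.00991) rose with it. Mcm3 measured 10.15, 9.89, 9.58 and 10.12 in the lines and 8.73, 8.71 and 8.75 in the cultures. No line overlapped the cultures for these 3 genes. The count of 5 became 3 without line 179, 8 with array weights, and 9 or 10 after quantile normalization or scaling to a common 75th percentile. Of 36 mitotic genes limma called 0, and 0 had an unadjusted p below 0.05 (median 0.15). Mki67, a marker of cycling cells, was at 7.65, 9.05, 8.60 and 8.82 in the lines and 8.77, 8.98 and 8.84 in the cultures (-0.33 ± 0.40, adjusted p = 0.635).

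The form TTTCCCGC of the site bound by E2F factors was searched on both strands. It stood in 2 of the 4 risen replication genes with a promoter in the table and in 1.24% of all genes with a promoter. The promoter of Mcm3 at chr1:20820263-20820562 (minus strand, GRCm38.p6) is shown as the member that held its call in every setting, with the match in capitals.
Mcm3: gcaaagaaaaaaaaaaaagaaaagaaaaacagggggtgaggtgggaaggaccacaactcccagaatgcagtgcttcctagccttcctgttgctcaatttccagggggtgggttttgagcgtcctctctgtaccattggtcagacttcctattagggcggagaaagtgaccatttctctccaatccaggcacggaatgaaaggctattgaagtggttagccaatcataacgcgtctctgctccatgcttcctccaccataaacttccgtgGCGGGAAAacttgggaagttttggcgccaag

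Among regulators of the G1 phase, Cdkn2a, which encodes the inhibitors p16 and p19Arf, measured 10.15, 9.99, 10.38 and 9.80 in the lines, against 7.16, 6.80 and 6.66 in the cultures (3.20 ± 0.51, adjusted p = 1.07e-04). All lines were more than 2 log2 units above every culture. Rb1, whose product p16 keeps active, was at 6.41, 8.68, 7.61 and 6.83 in the lines and 7.61, 7.45 and 7.29 in the cultures (-0.07 ± 0.43, adjusted p = 0.941), the lines lying on both sides of the cultures. Cdkn1a, the inhibitor p21, varied from 8.37 to 11.36 over the lines and from 10.02 to 10.22 over the cultures (-0.18 ± 0.64). Myc was at 8.32, 7.66, 8.32 and 8.40 in the lines and 7.63, 7.78 and 7.85 in the cultures (0.42 ± 0.26, adjusted p = 0.292). Of the genes induced in the DNA damage response, 7 of 25 fell (median -0.79). Ccng1, a cyclin of that response, measured 9.19, 8.87, 8.94 and 8.77 in the lines and 11.02, 10.99 and 10.91 in the cultures (-2.03 ± 0.36, adjusted p = 3.14e-04). The death receptor Fas (-2.45 ± 0.48), the stress sensor Sesn1 (-1.87 ± 0.36) and the RNA-binding protein Zmat3 (-1.76 ± 0.35) fell too, with adjusted p of 9.32e-04, 6.68e-04 and 9.38e-04. Line 213 came closest to the cultures for Fas, at 7.92, against 7.99 to 8.57 in the cultures.

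Other large or even rises were those of single genes. Ifi202b, an interferon-inducible DNA sensor, measured 9.06, 10.37, 9.41 and 9.86 in the lines, against 3.91, 3.64 and 3.64 in the cultures (5.95 ± 0.54, adjusted p = 1.78e-08). The actin regulators Cap1 (11.13, 9.77, 10.15 and 10.80 in the lines, 7.37, 6.38 and 6.78 in the cultures) and Cap2 (7.25, 8.02, 7.57 and 7.07 in the lines, 5.08, 4.51 and 3.87 in the cultures) rose side by side, by 3.62 and 2.99. Sp8, a zinc finger factor of the limb and brain, was at the floor in every culture and at 5.96, 6.48, 7.0 and 5.76 in the lines, a rise of at least 2.66 (adjusted p = 7.30e-08). Hsd17b1, which makes estradiol from estrone, measured 7.99, 6.65, 6.22 and 5.34 in the lines and 4.12, 3.64 and 3.64 in the cultures (2.75 ± 0.44). Line 176 held the highest value and line 213 the lowest. Dll1, a Notch ligand, measured 6.68, 8.05, 7.84 and 7.92 in the lines and 4.89, 4.80 and 4.36 in the cultures (2.94 ± 0.36, adjusted p = 2.95e-06). Lonp1, the main protease of the mitochondrial matrix, measured 10.43, 10.39, 10.02 and 10.15 in the lines and 8.80, 8.70 and 8.82 in the cultures (1.47 ± 0.17, adjusted p = 1.21e-06). Srl, a calcium-binding protein of muscle (3.43 ± 0.72), and Bves, a membrane protein related to Popdc3 (2.87 ± 0.48), also rose. Trim66 (1.75 ± 0.22), Gatb (1.43 ± 0.18) and the predicted genes Gm29538 (2.46 ± 0.31) and Gm17597 (1.64 ± 0.21) rose too, and were among the 10 rises with the largest t. Gm29538 passed the intensity filter only through the lines, so the direction of its difference was fixed by that selection. Gatb is uncertain: its other probe set was called lower (-1.494, adjusted p = 0.0105 with each probe set tested on its own), and over the mean of its probe sets the difference was -0.0313.

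The bone character of both groups was checked first on genes that mark osteoblasts. Col1a1, a chain of type I collagen, measured 13.73, 13.26, 13.68 and 13.41 in the lines and 13.84, 13.95 and 13.84 in the cultures (-0.36 ± 0.11, adjusted p = 0.0292), near the top of the scale in all 7. A second, dimmer probe set of Col1a1 went the other way, with a mean of 11.58 in the lines and 10.38 in the cultures (difference 1.198, adjusted p = 0.0142 with each probe set tested on its own), so the direction of Col1a1 is uncertain. Sp7, a factor needed for osteoblast formation, was at 10.52, 6.97, 8.42 and 6.21 in the lines and 8.37, 8.46 and 8.75 in the cultures (-0.50 ± 0.76, adjusted p = 0.716). Line 176 thus lay above the cultures, line 182 within their range and lines 179 and 213 below. Alpl, the phosphatase of mineralising cells, had the same order of lines, with 11.16, 8.91, 10.40 and 7.09 in the lines and 9.82, 9.95 and 10.16 in the cultures (-0.58 ± 0.92, adjusted p = 0.724). Runx2, Bglap and Spp1 are not named by the annotation used here and were not analysed.

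Some markers of bone matrix fell. Of 15 tested genes of bone matrix and mineralisation, 5 fell (median -0.58), where 6.64% of all genes did. All lines lay below all cultures for 9, against 27.9% of all genes. Dmp1, a matrix protein of osteocytes, measured 3.64, 4.32, 4.67 and 4.74 in the lines, against 9.59, 9.0 and 10.06 in the cultures (-5.21 ± 1.36, adjusted p = 0.01). This call held in every setting. Ibsp, bone sialoprotein, measured 10.12, 8.0, 8.99 and 3.64 in the lines, against 12.15, 12.27 and 12.34 in the cultures (-4.57 ± 1.44, adjusted p = 0.032). Line 213 was at the floor and line 176 was closest to the cultures. Ifitm5, a membrane protein of mineralising osteoblasts, measured 5.79, 5.05, 6.02 and 5.59 in the lines and 8.67, 8.80 and 8.53 in the cultures (-3.05 ± 0.83, adjusted p = 0.0125). The count of 5 became 2, 1 and 3 without osteoblast culture 1, 2 and 3 and 3 without line 179, and the call for Ifitm5 was lost without culture 2 (adjusted p = 0.0507). The call for Ibsp was lost without culture 1, 2 or 3 (adjusted p = 0.0885, 0.0932 and 0.0868), without line 179 (0.0542) and without line 213 (-3.22, adjusted p = 0.121). Among 19 osteoblast transcription factors, 1 rose and 3 fell, and the lower count was 1 without culture 1, 2 or 3. Runx3 rose, with 9.02, 7.39, 8.29 and 7.57 in the lines and 5.90, 5.98 and 5.69 in the cultures (2.21 ± 0.35, adjusted p = 9.72e-05). A second probe set of Runx3 was not called (0.457, adjusted p = 0.0532 with each probe set tested on its own). Tbx15, a factor of limb and trunk mesenchyme, fell, with 7.10, 7.39, 7.12 and 7.33 in the lines and 9.21, 9.27 and 9.09 in the cultures (-1.96 ± 0.29, adjusted p = 4.86e-05).

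Several position factors of the limb fell. Of 21 tested Hox and related genes, 8 fell (median -0.71). Hoxa10 measured 3.99, 4.77, 4.02 and 4.49 in the lines, against 9.71, 9.54 and 9.41 in the cultures (-5.24 ± 0.25, adjusted p = 2.30e-14). Hoxc10 measured 3.97, 3.64, 3.64 and 3.64 in the lines, against 8.15, 8.38 and 8.07 in the cultures (-4.48 ± 0.10, adjusted p = 1.97e-21). The primary tumours' median of Hoxc10 was at the floor too, so its small SE and p partly reflect the floor. Hoxc10 passed the intensity filter only through the cultures, so the direction of its fall was fixed by that selection. Tbx4, a factor of the hindlimb, measured 3.64, 3.64, 3.70 and 4.82 in the lines, against 8.21, 8.27 and 8.05 in the cultures (-4.22 ± 0.49, adjusted p = 9.19e-07). These 3 genes were at or near the floor in every line. Hoxa11, which patterns the middle limb segment, measured 5.84, 6.21, 5.94 and 6.0 in the lines and 8.79, 8.47 and 8.35 in the cultures (-2.54 ± 0.18, adjusted p = 2.23e-10). Hoxa3, a factor of the neck region, fell as well (-2.87 ± 0.64, adjusted p = 0.00309). Hoxc8 parted the lines, with 8.26, 3.64, 3.64 and 5.04 in the lines and 7.96, 8.04 and 8.0 in the cultures: line 176 was above every culture and lines 179 and 182 were at the floor, and its call (-2.86 ± 0.74, adjusted p = 0.00978) was lost with only the 7 arrays in the fit (adjusted p = 0.0884). Hoxa13, of the hand and foot, was at 5.29, 6.15, 6.85 and 6.69 in the lines and 5.62, 5.57 and 5.43 in the cultures (0.70 ± 0.47, adjusted p = 0.34). The other mesenchymal factors Meox2 (-2.70 ± 0.23), Ebf1 (-2.24 ± 0.40), Ebf3 (-2.06 ± 0.33) and Foxp2 (-1.55 ± 0.33) fell. Medians of the primary tumours lay at 4.56 for Hoxa10, 5.98 for Hoxa11, 3.64 for Hoxc10 and 3.64 for Tbx4, and 4 of the 21 genes were called higher in the lines than in the primary tumours, where 4.72% of all genes were.

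**Figure D4:**
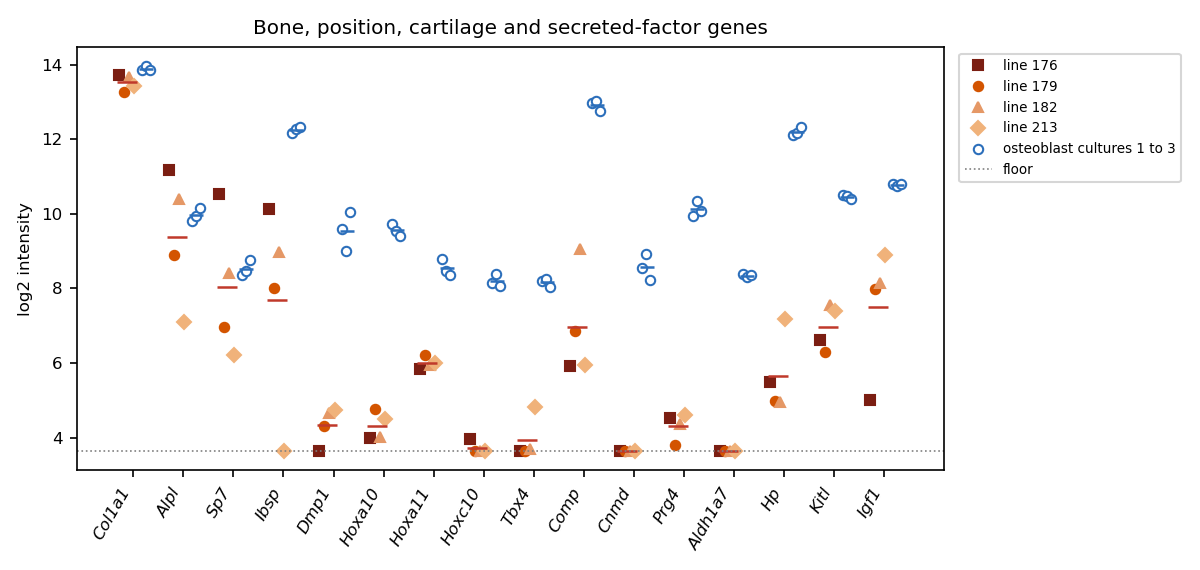
log2 intensity of bone, position, cartilage and secreted-factor genes in each cell line (filled symbols, left of each gene) and each osteoblast culture (open circles, right), with bars at the group means. Col1a1, Alpl and Sp7 are close or overlap, while Hoxc10, Cnmd and Aldh1a7 lie at or near the floor in every line. Hoxa10 and Tbx4 lie far below every culture in every line.

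Markers of other cell types in the cultures were examined before the remaining falls. Macrophage markers had a list mean of 5.25 to 5.31 in the lines, against 5.25 to 5.33 in the cultures, and all 18 were called lower in the lines than in the primary tumours, where 7.03% of all genes were. Fat cell genes were high in the cultures: the mean of 23 genes was 6.29 to 6.79 in the lines, against 9.72 to 9.82 in the cultures, and 20 fell (median -3.24). Cebpa, a factor of fat cell differentiation, measured 6.32, 6.46, 6.61 and 8.35 in the lines and 11.17, 11.06 and 11.18 in the cultures (-4.21 ± 0.37, adjusted p = 1.32e-08), and Pparg, the other such factor, 7.46, 4.63, 5.82 and 7.38 in the lines and 8.92, 8.97 and 8.70 in the cultures (-2.54 ± 0.37). The hormone gene Retn fell evenly, with 5.63, 5.75, 5.84 and 5.91 in the lines and 9.92, 9.72 and 9.76 in the cultures. Fewer cells of a type and less RNA per cell cannot be told apart in such bulk samples. Of 8 pericyte and smooth muscle markers 4 fell, among them Myh11 (-3.46 ± 0.32) and Abcc9 (-3.04 ± 0.58), and the list mean was 6.16 to 6.85 in the lines, against 7.94 to 8.22 in the cultures. Cdh5, an endothelial cadherin, was at 3.64, 3.64, 4.70 and 3.68 in the lines and 5.65, 6.92 and 6.49 in the cultures (-2.43 ± 0.41), a call lost over the mean of its probe sets (-0.77). The part of these cell types in the falls that follow was not tested.

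Several genes of cartilage matrix fell. Of 16 cartilage genes 8 fell (median -1.58). Comp, a matrix protein of cartilage and tendon, measured 5.93, 6.87, 9.07 and 5.96 in the lines, against 12.97, 13.02 and 12.74 in the cultures (-5.95 ± 0.71, adjusted p = 1.69e-06). Line 182 held more of it than the other lines. Cnmd, chondromodulin, was at the floor in every line, against 8.55, 8.93 and 8.24 in the cultures (-4.93, at least that large a fall, adjusted p = 1.97e-21). Every primary tumour was at the floor for Cnmd too, so the size of this p partly reflects the floor. Cnmd passed the intensity filter only through the cultures, so the direction of its fall was fixed by that selection. Prg4, the lubricant of joints, measured 4.53, 3.81, 4.36 and 4.6 in the lines and 9.95, 10.35 and 10.08 in the cultures (-5.80 ± 0.85, adjusted p = 3.17e-05). Col2a1, the chain of cartilage collagen, measured 6.80, 6.57, 7.60 and 6.99 in the lines and 9.65, 9.61 and 9.47 in the cultures (-2.59 ± 0.36, adjusted p = 1.53e-05). Sox9, the factor above these genes, was at 7.40, 5.33, 6.93 and 7.15 in the lines and 8.76, 8.90 and 8.63 in the cultures (-2.06 ± 0.59, adjusted p = 0.0189); that call was lost without osteoblast culture 1, culture 2 or line 179 (adjusted p = 0.0619, 0.0724 and 0.081).

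Of 37 proteoglycans and matricellular proteins 11 fell (median -1.05); without osteoblast culture 1 the count was 7. Lum, lumican, which spaces collagen fibrils, measured 6.63, 7.23, 8.42 and 7.43 in the lines, against 12.79, 12.64 and 12.63 in the cultures (-5.26 ± 0.80, adjusted p = 5.60e-05). Its relative Dcn, decorin, measured 8.09, 9.12, 10.86 and 10.86 in the lines, against 12.56, 12.64 and 12.28 in the cultures (-2.76 ± 0.63, adjusted p = 0.00352). Kera, keratocan of the same family, was at the floor in every line, against 7.81, 8.19 and 7.49 in the cultures (-4.19, again a bound, adjusted p = 4.34e-17). Kera passed the intensity filter only through the cultures, so the direction of its fall was fixed by that selection. Thbs1, an activator of TGF-beta, measured 10.06, 10.43, 10.69 and 10.83 in the lines and 13.31, 13.21 and 13.13 in the cultures (-2.71 ± 0.47, adjusted p = 2.88e-04). The calcium-binding matrix proteins Smoc1 (-4.18 ± 0.53) and Sparcl1 (-3.63 ± 0.65) and the secreted protein Egfl6 (-5.84 ± 0.49) also fell, each lowest in line 176 and highest in line 213. Among 23 collagens 4 fell, Col14a1 (-2.89 ± 0.62) and Col24a1 (-1.83 ± 0.41) in every setting; without osteoblast culture 1 or line 179 the count was 2. Col1a1 is described above.

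Among receptor tyrosine kinases and their ligands, of which 6 of 41 fell, the ligands Kitl, Gas6 and Vegfd were lower in every line. Kitl, the ligand of the receptor Kit, measured 6.61, 6.30, 7.57 and 7.40 in the lines, against 10.51, 10.48 and 10.39 in the cultures (-3.49 ± 0.33, adjusted p = 3.49e-08). Gas6, the ligand of Axl receptors, measured 8.16, 10.27, 9.96 and 10.99 in the lines, against 13.63, 13.61 and 13.39 in the cultures (-3.70 ± 0.56, adjusted p = 5.60e-05). Vegfd, a growth factor of lymphatic vessels, measured 5.58, 6.36, 7.27 and 9.44 in the lines, against 10.27, 10.09 and 10.18 in the cultures (-3.02 ± 0.60, adjusted p = 9.96e-04). Line 213 came closest to the cultures for Vegfd and Gas6, and line 176 or 179 was farthest from them for all 3. In the IGF axis 4 of 17 fell: Igf1 measured 5.0, 7.98, 8.15 and 8.91 in the lines and 10.81, 10.74 and 10.79 in the cultures (-3.27 ± 0.83, adjusted p = 0.00815), and Pappa, the protease that frees IGF from its binding proteins, fell by 2.77 ± 0.58. Cxcl12, the chemokine that holds blood stem cells in the marrow, measured 6.02, 10.52, 11.15 and 12.06 in the lines and 13.84, 13.78 and 13.68 in the cultures (-3.83 ± 0.96, adjusted p = 0.0073); with only the 7 arrays in the fit this call was lost (adjusted p = 0.0694). Ccl9 (-2.70 ± 0.53, adjusted p = 9.48e-04) was a chemokine that fell in every setting.

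In the Wnt pathway 7 of 41 genes fell and 1 rose (median -0.38); the lower count was 11 with only the 7 arrays in the fit and 14 with array weights. The secreted antagonist Frzb measured 3.64, 4.93, 4.77 and 5.39 in the lines, against 8.87, 9.32 and 9.12 in the cultures (-4.42 ± 1.08, adjusted p = 0.00641). Lgr5, a receptor for R-spondins, measured 3.64, 7.38, 5.71 and 6.69 in the lines, against 10.28, 9.94 and 9.87 in the cultures (-4.17 ± 0.74, adjusted p = 3.17e-04). Line 176 was at the floor for both. The receptor Fzd4 (-2.29 ± 0.47), the co-receptor Lrp6 (-1.60 ± 0.25) and the antagonist Sfrp4 (-1.53 ± 0.34) fell as well. The ligand Wnt4 rose, with 8.14, 6.56, 6.54 and 6.41 in the lines and 4.57, 5.67 and 4.85 in the cultures (1.88 ± 0.45, adjusted p = 0.00507), a call lost over the mean of its probe sets (adjusted p = 0.0962). Of 42 BMP and TGF-beta genes 6 fell; the count was 2 or 3 without osteoblast culture 1, culture 2 or line 182. The ligand Gdf10 (-3.67 ± 0.91, adjusted p = 0.00709) and the BMP antagonist Chrdl1 (-3.43 ± 0.47, adjusted p = 1.44e-05) kept their calls throughout. The FGF receptor Fgfr2 measured 9.84, 7.74, 8.79 and 7.62 in the lines and 10.82, 10.91 and 10.94 in the cultures (-2.39 ± 0.53, adjusted p = 0.00283), highest in line 176.

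Several enzymes of retinoid and xenobiotic metabolism fell. Of 36 genes of detoxification and glutathione metabolism, 11 fell (median -0.58). The aldehyde dehydrogenase Aldh1a7 was at the floor in every line, against 8.38, 8.31 and 8.35 in the cultures (-4.71, a bound, adjusted p = 2.00e-19). Aldh1a7 passed the intensity filter only through the cultures, so the direction of its fall was fixed by that selection. Aldh1a1, which makes retinoic acid, measured 3.64, 5.29, 5.75 and 6.81 in the lines and 9.64, 9.52 and 9.30 in the cultures (-4.11 ± 0.78, adjusted p = 6.33e-04). Aldh1a2, the main retinoic acid enzyme of the embryo, measured 4.51, 7.35, 7.05 and 7.47 in the lines and 10.75, 10.36 and 10.22 in the cultures (-3.85 ± 0.48, adjusted p = 2.90e-06). Line 176 held the lowest value of both. The cytochrome Cyp2f2 fell by 5.87 ± 0.93 (adjusted p = 8.77e-05), and catalase, Cat, by 1.79 ± 0.35 (adjusted p = 8.01e-04). In the steroid pathway, Hsd11b2, which inactivates glucocorticoids, measured 4.84, 4.41, 4.32 and 5.24 in the lines and 9.29, 9.29 and 8.90 in the cultures (-4.46 ± 0.27, adjusted p = 9.91e-12). Of 16 glucocorticoid-induced genes 6 fell, among them Timp4, an inhibitor of matrix proteases (-3.36 ± 0.36), Glul, glutamine synthetase (-2.50 ± 0.63), and Angptl4, an inhibitor of lipoprotein lipase (-2.77 ± 0.72).

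Acute phase and complement genes, which the liver makes in inflammation and fat and stromal cells make too, fell for 7 of 16 (median -1.39). Hp, haptoglobin, measured 5.48, 4.99, 4.97 and 7.19 in the lines, against 12.10, 12.16 and 12.33 in the cultures (-6.54 ± 1.2, adjusted p = 5.09e-04). Lbp, which presents bacterial lipid, measured 4.57, 6.69, 6.0 and 8.15 in the lines, against 10.65, 10.60 and 10.42 in the cultures (-4.21 ± 1.10, adjusted p = 0.00978). Cfb, of the alternative complement pathway, measured 4.12, 6.47, 4.58 and 8.09 in the lines, against 9.70, 9.60 and 9.38 in the cultures (-3.75 ± 0.71, adjusted p = 6.43e-04). Line 213 held the highest value of all 3. Of 18 genes of fatty acid oxidation 4 fell, with Ech1 at -1.93 ± 0.27, Cpt2 at -1.5 ± 0.23 and Acadm at -1.39 ± 0.23. Of 31 genes of glycolysis and hypoxia 5 fell, including the hypoxia factor Epas1 (-2.88 ± 0.55) and the vasodilator Adm (-2.87 ± 0.55). The carbonic anhydrase Car9 (-2.03 ± 0.33) and the glycolytic regulator Pfkfb3 (-2.19 ± 0.39) were among them too. A second probe set of Epas1 was not called (-0.204, adjusted p = 0.606 with each probe set tested on its own). Of 27 adhesion genes 6 fell, with Icam1 at 4.21, 3.69, 3.64 and 4.25 in the lines and 7.56, 7.84 and 7.45 in the cultures (-3.67 ± 0.64, adjusted p = 2.88e-04) and the gap junction protein Gja1, which couples bone cells, at 8.61, 9.95, 9.92 and 9.43 in the lines and 11.84, 11.75 and 11.93 in the cultures (-2.36 ± 0.51, adjusted p = 0.00223).

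The largest falls of single genes were Adipoq (-8.72 ± 0.76), Wfdc21 (-7.19 ± 0.78), Fabp4 (-7.18 ± 0.93), Car3 (-6.93 ± 1.31), Penk (-6.55 ± 0.92), Hp, Esm1, Otor (-5.95 ± 0.76) and Comp. Esm1, a proteoglycan secreted by endothelial cells, was at the floor in every line, against 10.19, 10.08 and 9.96 in the cultures (-6.44, a bound, adjusted p = 3.71e-09). Cd36 (-5.81 ± 0.82), a fatty acid transporter, and Hpgd (-5.72 ± 1.04), which inactivates prostaglandins, were among the 15 largest too, as were Cyp2f2, Egfl6, Prg4 and Lum. Ankef1 and B3galt2 were at the floor in every line (-2.98 and -3.08, both bounds) and were among the 10 falls with the largest t. Such large t values partly reflect the floor, which leaves almost no spread in the lines and tumours. Ankef1 and B3galt2 also passed the intensity filter only through the cultures. The direction of their falls was fixed by that selection, so these t values give no support. Without the filter another probe set stood for Ankef1 and gave 0.02105.

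The lines differed among themselves more than the cultures did. Line 176 stood at least 2 log2 units below every other line for 176 genes and above every other for 30. Line 213 stood 2 units above the others for 24 genes and below for 6, line 179 for 13 and 2, and line 182 for 3 and 2. Of the 12 genes with the highest SD over the lines, Actc1, Tnnc2, Myh3, Mylpf, Myog, Myl1, Chrna1, Myod1 and Tnni1 are muscle genes and Ifi27l2a, Igfbp3 and Ifit1 are not. These genes were chosen by their spread, so their values are a description with no test.

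Line 176 was low in interferon-stimulated genes. It lay below every other line for 32 of 38 genes of the interferon response, and the list's mean was 6.30, 8.79, 7.91 and 9.0 in lines 176, 179, 182 and 213, against 7.83 to 8.18 in the cultures. The count is not particular to this list, since line 176 was also lowest for 30 of 36 mitotic genes, though for only 9 of 28 amino acid genes. Its share over all genes was not counted. Ifit1, which binds viral RNA, measured 3.92, 11.05, 10.17 and 10.80 in the lines and 10.13, 10.01 and 9.26 in the cultures. The cultures therefore lay within the span of the lines. MHC class I genes had a mean of 9.02 in line 176, 9.55 to 10.07 in the other lines and 9.72 to 9.85 in the cultures. Ifi202b, on the other hand, was more than 5 log2 units above the cultures in line 176 too.

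Of 16 imprinted genes 3 fell, a count that was 1 after quantile normalization and without osteoblast culture 1 or 2, and 7 with array weights. The list was lowest in line 176, with a mean over 16 genes of 6.94, 8.38, 8.45 and 9.10 in the lines, against 9.25 to 9.44 in the cultures. Cdkn1c, the growth inhibitor p57, measured 4.29, 6.48, 9.17 and 8.79 in the lines and 10.35, 10.33 and 10.12 in the cultures (-3.08 ± 1.41, adjusted p = 0.147). Meg3, a long non-coding RNA of the maternal chromosome, measured 5.63, 9.45, 10.19 and 11.42 in the lines and 11.06, 11.03 and 10.88 in the cultures (-1.82 ± 0.91, adjusted p = 0.185), and Grb10, an adaptor that dampens insulin signalling, 7.51, 11.55, 11.31 and 11.38 in the lines and 12.01, 11.98 and 12.06 in the cultures. Cdkn1c, Meg3 and Grb10 did not pass the test (adjusted p = 0.112 for Grb10); Cdkn1c and Meg3 did with array weights. Igf2 measured 7.24, 12.09, 8.51 and 10.26 in the lines and 10.76, 11.08 and 11.10 in the cultures, the highest value being that of line 179. Igfbp3, which binds IGFs, was near the floor in line 176 at 3.67, against 11.22, 9.06 and 10.57 in the other lines and 11.10 to 11.29 in the cultures. Genes highest in line 176 included Piwil2, a partner of germline small RNAs, with 7.84, 3.64, 3.64 and 3.64 in the lines and 3.64, 3.64 and 3.8 in the cultures, and Tnn, a tenascin of developing bone, with 11.87, 7.42, 7.68 and 6.14 in the lines and 9.14, 8.88 and 9.13 in the cultures. Line 176 was also the line with the most Sp7, Runx3 and Alx1 (7.19, 5.22, 5.22 and 5.80 in the lines, 3.64, 3.68 and 3.64 in the cultures), a factor of cranial mesenchyme.

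Lines 179, 182 and 213 had their own leading genes. Among the genes farthest above the other lines in line 179 were those of adult fast muscle. Tnni2 measured 3.64, 10.20, 6.75 and 5.68 in the lines and was at the floor in the cultures, and Myh1 measured 3.64, 10.31, 7.47 and 6.86 in the lines and 3.64, 3.70 and 3.64 in the cultures. In line 182 the retinoic acid binding protein Crabp1 led, with 6.08, 8.05, 10.90 and 7.46 in the lines and 6.34, 6.62 and 6.46 in the cultures. In line 213 Plac8 led, with 4.70, 6.36, 7.53 and 10.96 in the lines and 8.94, 8.36 and 8.09 in the cultures, and Fabp4, a fatty acid carrier of fat cells, stood at 8.86, against 4.63, 5.56 and 5.71 in the other lines and 13.33 to 13.42 in the cultures. Ibsp, at the floor in line 213, was the gene farthest below the other lines there.

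**Figure D5:**
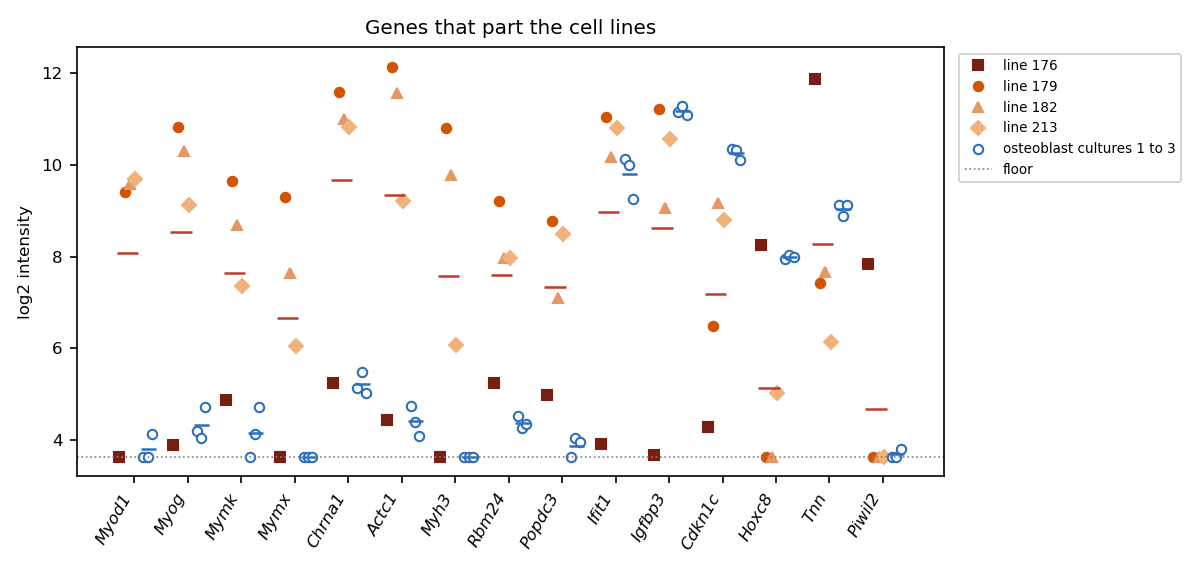
log2 intensity of genes that differ between the cell lines, with each line as a filled symbol left of the gene, each osteoblast culture as an open circle right of it and bars at the group means. Line 176 (squares) lies below the other lines for the muscle genes, Ifit1, Igfbp3 and Cdkn1c, and above them for Hoxc8, Tnn and Piwil2.

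The primary tumours give a second point of comparison for some of the rises and falls, in the same fit. The amino acid list had 15 of 28 genes higher in the lines than in the primary tumours, where 4.72% of all genes were. Chac1 measured 10.18, 9.78, 9.73 and 9.19 in the lines and had a median of 6.92 over the primary tumours (difference 2.48, adjusted p = 4.22e-05), Trib3 a median of 7.64 (difference 2.11, adjusted p = 1.70e-08) and Asns a median of 8.23 (difference 2.63, adjusted p = 1.36e-04). The primary tumours numbered 176, 179 and 182 held Chac1 at 7.28, 6.29 and 6.82, all below the lines. Cdt1 differed by 0.76 from the primary tumours and Mcm3 by 0.18, and neither was called. Of the other rises, Cap2 (1.85), Bves (1.95), Dll1 (1.07) and Gm29538 (2.80) were called higher in the lines than in the primary tumours. For Gm29538 the intensity filter fixed this direction too. Cap1 (0.79), Cdkn2a (0.91), Gatb (-0.21) and Gm17597 (-0.04) were not called. Cap1, Cdkn2a, Gatb and Gm17597 were also called higher in the primary tumours than in the cultures. So were Dll1 (1.87), Cap2 (1.14) and Cdt1 (1.13), whose rises are thus not particular to the lines. Bves (0.92) and Gm29538 (-0.34) were not called between primary tumours and cultures. Falls were of both kinds. Primary tumours too were called lower than the cultures for Adipoq (-8.37), Egfl6 (-7.25), Comp (-5.995), Fas (-3.81) and Ccng1 (-2.56). Such falls set the cultures apart from lines and tumours alike. Dmp1 (-0.87), Dcn (-0.17), Gja1 (-0.30), Epas1 (0.27) and Fgfr2 (-0.93) were not called there, and were called lower in the lines than in the primary tumours. The lines minus primary tumours comparison shares the lines with the one above and is no independent repeat of it.

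Counts for further lists were as follows, where 6.64% of all genes fell and 1.58% rose. Of 22 FGF pathway genes 4 fell, and of 32 chemokines and cytokines 6 fell. Of 25 Notch and Hedgehog genes 2 rose, Dll1 among them, and 2 fell, a count that was 1 without line 182 or line 213. Of 27 matrix proteases and inhibitors 5 fell, with Serpina3n at -3.31 ± 0.68 (adjusted p = 0.00135); without osteoblast culture 1 the count was 2. Integrins gave 3 of 16 lower. Immediate early genes gave 0 calls of 22 with limma (1 lower at an unadjusted p below 0.05). Of 24 neural genes 6 fell, led by Penk, a precursor of opioid peptides; the count was 1 without osteoblast culture 1 and 3 without culture 2.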

How the data were processed

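Gene expression was measured on 26 Affymetrix arrays, of which 4 hold cell lines and 3 osteoblast cultures. The values are intensities deposited by the authors in a single table; their method of background correction and summary is not given in the sources used here, and 1.35% of values are exactly 1. They ran from 0.497 to 21734.1, with array medians close to each other, and were used without further scaling.

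Intensities under the 20th percentile of all values (12.456) were raised to it and log2 was taken. Probe sets above 52.6 (the median) on at least 3 of the 26 arrays were kept (27344 of 45101). Names came from the platform annotation: 34945 probe sets had 1 gene symbol, 932 had several and were not named, and 9224 had none, controls included. The brightest kept probe set stood for each gene, giving 12887 genes. limma 3.58.1 in R 4.3.3 was fitted to all 26 arrays in 4 groups (lines, osteoblasts, primary and secondary tumours), so that all share one estimate of the spread, with Benjamini-Hochberg adjustment over the 12887 genes. The script was tested on simulated data. Arrays give no counts, so their number limits the precision. Where every array of a group is at the floor and every array of the other above it, a difference is a lower bound. Where lines and tumours are both held at the floor, a gene's fitted spread is small. Its SE and p then partly reflect the floor. Some genes passed the filter only through the cultures, among them Cnmd, Aldh1a7, Kera, Hoxc10, Ankef1 and B3galt2. Mymx and Gm29538 passed it only through lines. The direction of such differences was fixed by the filter.

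The genes named are the 15 largest rises and falls that do not overlap between groups, the 10 highest and lowest by t, up to 6 called members of each list with uncalled members by value, the 12 genes with the highest SD over lines, some of the genes farthest from the other lines in each line, and Cdkn2a, Rb1, Cdkn1a, Mki67, Myc, Col1a1, Sp7, Ifi202b and Cap1. One gene of this rule is not reported here. The comparison and the gene lists were chosen with earlier results of these data known. The alternatives were another floor, filter, scaling and summary of probe sets, array weights, a fit of 7 arrays, tumour number as a block, and leaving out each line or culture.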

Additional observations from a re-analysis of the deposited data

Results flagged for a closer look

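For 21 of the 164 genes named above, 1 of the 4 lines stood apart by Dixon's criterion (its gap to the nearest other line took up most of the whole range). Chance alone sets apart about 1 in 20 such groups, and the genes were partly chosen for their spread over the lines. For Adipoq, Hoxc10, Otor, Piwil2 and Wfdc21 the other 3 lines were all at the floor, so that any value above it meets the criterion by construction. Values are log2 intensities.

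Line 176 was the lowest for 7 genes. Among muscle genes these were Myod1 at 3.64 and Chrna1 at 5.25, and the others were the interferon gene Ifit1 at 3.92, the imprinted Grb10 at 7.51, Aldh1a2 at 4.51, Meox2 at 5.73 and Dll1 at 6.68. It was the highest for Piwil2 at 7.84, Wnt4 at 8.14 and Hoxc10 at 3.97, the last just above the floor.

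Line 213 was the highest for the fat cell genes Adipoq at 5.33 and Cebpa at 8.35, for Cpt2 at 7.96, Otor at 4.98, Tbx4 at 4.82 and Wfdc21 at 4.03, and the lowest for Cd36 at 3.64. Line 179 was the highest for Gdf10 at 6.89 and Pax3 at 7.13 and the lowest for Myc at 7.66. Line 182 was the highest for Cdh5 at 4.70.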

How the results depend on the processing

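Of the 131 called genes named here, 112 kept their direction and call under all alternatives that could be run for them, 17 lost the call under at least 1, and 2 turned sign. Of 33 genes not called, 15 were called under at least 1 alternative. The 2 that turned sign were Ankef1 without the filter (0.02105) and Gatb over the mean of its probe sets (-0.0313). The number of higher genes, 203, became 121 with the filter at the 75th percentile, 342 with arrays scaled to a common 75th percentile, 342 with array weights and 361 with every probe set tested on its own. The number of lower genes, 856, became 553 after quantile normalization and 1468 with every probe set on its own. Leaving out 1 line or culture gave 152 to 224 higher and 615 to 910 lower genes. The cause of these shifts was not tested. No paired analysis was possible because the lines and the cultures share no replicate numbers; with tumour number as a replicate block over lines and tumours (correlation 0.352), 212 genes were higher and 835 lower. The means rest on 4 lines and 3 cultures and the spread on all 26 arrays, and probe sets at the floor give only bounds.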

Other observations

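Aminoacyl-tRNA synthetases, which charge transfer RNAs with their amino acids, rose for 5 of 19 measured members. This list was chosen after the amino acid genes had been seen, so it has no test of its own. It holds 20 cytosolic synthetases. The median difference was 0.726, 17 were positive, and all 4 lines lay above all 3 cultures for 15, against 13.2% of all genes. Of all genes 1.58% rose. Of the 19, 2 had a difference below 0. Wars, which charges tryptophan, measured 9.92, 9.49, 9.22 and 9.33 in the lines and 8.22, 8.02 and 8.11 in the cultures (1.37 ± 0.22, adjusted p = 1.17e-04 with limma). Aars, which charges alanine, measured 11.36, 11.15, 10.85 and 10.72 in the lines and 9.52, 9.47 and 9.29 in the cultures (1.59 ± 0.33, adjusted p = 0.00169 with limma).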
